A study of Rattus norvegicus with 18 samples.

Results

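The 10 genes described here encode the enzymes that build fatty acids and then lengthen, desaturate and activate them: Acly, Acaca, Fasn, Scd, Fads1, Fads2, Elovl5, Elovl6, Me1 and Acsl3. They were chosen by name, with earlier results of these data known. Each has a symbol that stands alone against a probe set in the platform annotation. They are 10 of the 14218 genes that the array names in this way. Together they have 15 of its 31099 probe sets. Of these, 14 passed the intensity filter, and every gene kept at least 1, so all 10 were tested. Each gene stands by its brightest tested probe set, and values are log2 of the deposited intensity unless stated otherwise.

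The arrays carry RNA from bone marrow mesenchymal stem cells (BMSCs), the adherent stromal cells that grow out when whole marrow is plated. Sprague-Dawley rats entered the study at 6 weeks of age and ate either normal diet (ND, basal diet alone) or high-fat diet (HFD). HFD was 60% basal diet with 20% lard, 10% sucrose and 10% egg yolk powder, so it carried added fat, sugar and cholesterol-rich yolk together. With 1, 2 and 4 months of feeding this gave 6 groups of 3 arrays, and all cells were cultured in the same serum-containing medium before RNA was taken, at passage 3 by the sample labels and passage 1 by the series text.

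Fatty acid synthesis starts from citrate that leaves the mitochondria. ATP citrate lyase splits it to acetyl-CoA, acetyl-CoA carboxylase makes malonyl-CoA, and fatty acid synthase joins these units into palmitate with NADPH, part of which malic enzyme supplies. Elongases extend the chain, the stearoyl-CoA desaturase makes monounsaturated fat, the FADS desaturases make long polyunsaturated fat, and acyl-CoA synthetases attach CoA for use in lipids. Many of these genes are known targets of the sterol regulatory element binding proteins (SREBPs), which are held back by sterols and, for some targets, by polyunsaturated fatty acids.

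The deposited values had already been summarised with RMA by the authors, so their likeness in scale describes processed values. Medians lay between 25.4 and 27.1 and upper quartiles between 119 and 132 in linear intensity. The 3' minus 5' differences of the actin control lay between 0.48 and 0.70 log2 units. The stromal markers Thy1, Col1a1 and Pdgfra were bright on every array, with lowest values of 11.71, 12.04 and 9.80, while Lepr and the endothelial Pecam1 lay below the intensity filter. Other stromal markers were dimmer: Eng ran from 5.69 to 6.68, Nt5e from 5.85 to 8.66 and Vcam1 from 2.56 to 6.77. Macrophage markers were also present and varied widely: Cd68 ranged from 4.53 to 10.78. The fat cell genes Adipoq and Plin1 had medians of 3.10 and 3.11 but reached 7.72 and 8.38. On ND 1-month replicate 1 the deposited values were displaced upwards by 1343 rows and were first moved back. Acly, Fasn, Fads1, Fads2 and Acsl3 have no value on that array, so their ND 1-month group holds 2 arrays. In bulk RNA, fewer cells of a type and less RNA per cell cannot be told apart.

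The first question was what HFD did to these enzymes after 2 months, the time at which their median diet difference was widest. The delta-9 desaturase Scd and the delta-5 desaturase Fads1 fell, by 1.90 ± 0.47 and 1.69 ± 0.41 log2 units (SE, n = 3 per group), and no enzyme of the 10 rose past the test. The other 8 did not pass. Of these, Fads2, Acly, Fasn and Elovl5 had negative differences with adjusted p between 0.0815 and 0.0887, and the NADPH-supplying Me1 was the only enzyme with a positive difference. The differences were uneven along the pathway, from -2.01 for Fads2 to -0.03 for Acaca and 0.65 for Me1.

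In numbers, 2 of 10 genes passed in limma, against 2.49% of the 11446 named genes in either direction and 1.39% in the lower one. The 3 HFD arrays lay wholly below the 3 ND arrays for 6 of the 10 genes, where 14.8% of all named genes did so, and wholly above them for 1, where 10.7% did. An unadjusted p under 0.05 was reached by 7 of the 10 genes and by 2438 of the 11446 named genes. The median log2 fold change was -0.48 over the 10 genes and -0.04 over all named genes. Both the genes and this feeding time were picked with results of these data known. The shares therefore describe the 10 genes and are not a test of them as a set.

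**Figure D1:**
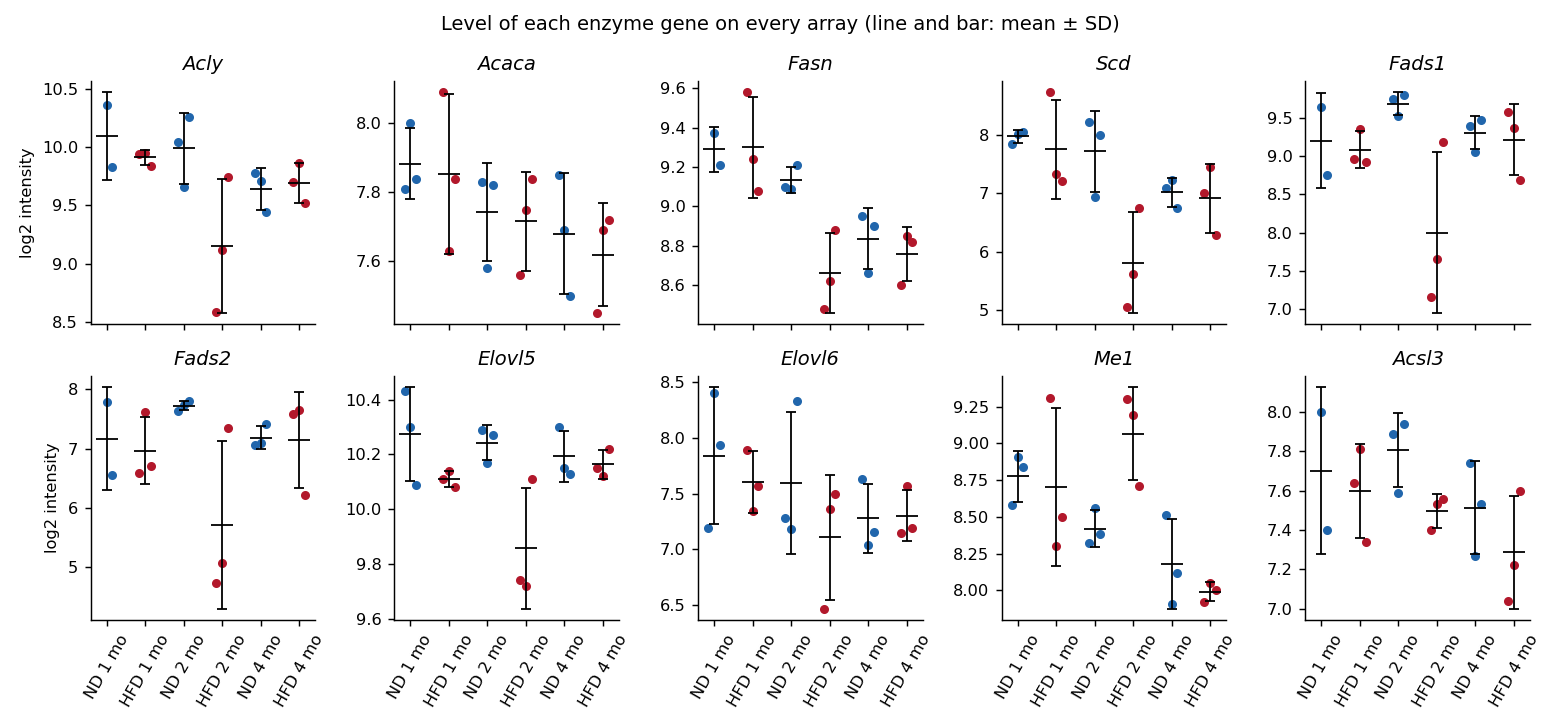
Each panel plots 1 enzyme gene, with the group on the horizontal axis and log2 intensity on the vertical axis (the range differs between panels and does not start at 0). Points are arrays (blue ND, red HFD), lines and bars the mean ± SD. In the Scd panel the HFD 2-month arrays, at 5.05, 5.62 and 6.75, lie below the ND 2-month arrays, and in the Me1 panel they lie above them.

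Among the desaturases, Scd, which puts the first double bond into stearate and palmitate, lies at chr1:253218968-253232101 of the GRCr8 assembly and was read by probe set 1370355_at. Its log2 intensity at 2 months was 8.21, 6.93 and 8.0 on the ND arrays and 5.05, 5.62 and 6.75 on the HFD arrays. The highest HFD array thus lay just below the lowest ND array, and the groups did not overlap. The difference was 3.74-fold lower (log2 fold change -1.90 ± 0.47, 95% interval -2.91 to -0.90, adjusted p = 0.0480). Ordered by mean, the 6 groups ran from ND at 1 month (7.97 ± 0.11, SD) through HFD at 1 month (7.75 ± 0.85), ND at 2 months (7.71 ± 0.69), ND at 4 months (7.01 ± 0.24) and HFD at 4 months (6.91 ± 0.59) to HFD at 2 months (5.81 ± 0.86). Neighbours in this order overlapped in their arrays at every step, the last included, where HFD 2-month replicate 3 lay above the lowest HFD 4-month array.

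Fads1 and Fads2 make arachidonic and other long polyunsaturated acids by desaturating at the delta-5 and delta-6 positions. They are neighbours on chromosome 1 and point away from each other, Fads2 at chr1:216132277-216172190 on the minus strand and Fads1 at chr1:216252605-216267618 on the plus strand. Fads1 (probe set 1367857_at) read 9.75, 9.52 and 9.80 on the ND 2-month arrays and 7.16, 7.65 and 9.18 on the HFD ones. Replicates 1 and 2 of HFD were far below all ND arrays, whereas replicate 3 was close to them, and the groups did not overlap. The fall was 3.23-fold (log2 fold change -1.69 ± 0.41, 95% interval -2.57 to -0.81, adjusted p = 0.0474).

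Fads2 (probe set 1368453_at) had the same order among the HFD arrays, with 7.64, 7.74 and 7.80 in ND and 4.73, 5.07 and 7.34 in HFD at 2 months. Again HFD replicates 1 and 2 were low and replicate 3 lay just under the ND arrays, without overlap. Its difference was the widest of the 10 genes, -2.01, but so was its standard error, 0.59, and it did not pass (95% interval -3.28 to -0.75, adjusted p = 0.0826). In the other groups Fads1 lay between 8.69 and 9.80 and Fads2 between 6.21 and 7.80.

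Over the 17 arrays with both values, Fads1 and Fads2 had a Pearson correlation of 0.976 and a Spearman correlation of 0.912, the closest of the 45 pairs among the 10 genes by Pearson correlation. Without the 2 arrays farthest from the median of Fads1, the HFD 2-month replicates 1 and 2, it was 0.920. By comparison, Scd and Fads1 had 0.717 over the same 17 arrays and 0.186 without the 2 farthest, so their likeness rested on those arrays. These are descriptions across arrays that share their groups and hybridisations.

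**Figure D2:**
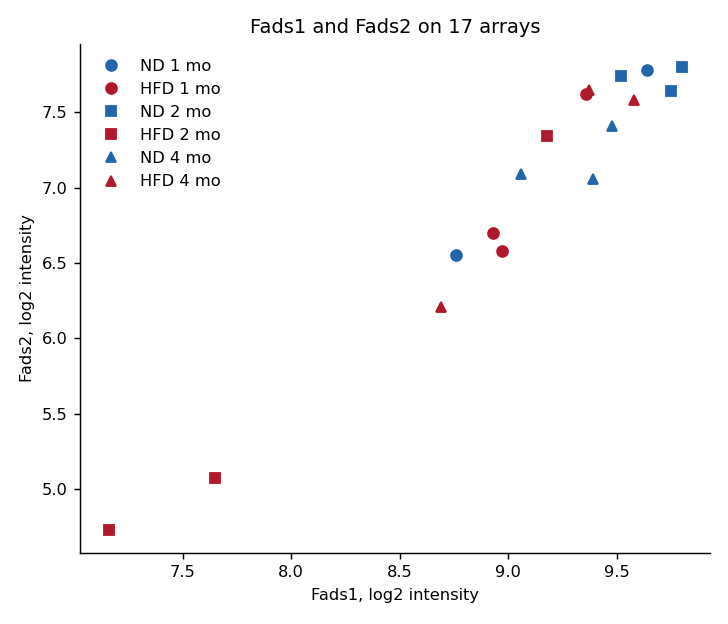
Each point is 1 of 17 arrays, with Fads1 on the horizontal and Fads2 on the vertical axis, both in log2 intensity. Colour gives the diet and shape the feeding time. HFD 2-month replicates 1 and 2 lie far below the rest, and the other 15 arrays also rise together.

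The bases just upstream of both annotated starts are shown because these neighbours moved together on the arrays. They come from the RefSeq promoter windows for GRCr8 (250 bases before the listed start), of which only the part outside the annotated gene is given. For Fads1 this is chr1:216252442-216252604 on the plus strand, 163 bases, and for Fads2 chr1:216172191-216172283 on the minus strand, 93 bases. Capitals mark CCAAT, the box bound by NF-Y, a partner of SREBPs.
Fads1: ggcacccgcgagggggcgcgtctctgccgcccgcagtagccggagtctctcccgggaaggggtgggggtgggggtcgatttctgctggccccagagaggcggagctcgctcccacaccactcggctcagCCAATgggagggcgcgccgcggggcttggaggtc
Fads2: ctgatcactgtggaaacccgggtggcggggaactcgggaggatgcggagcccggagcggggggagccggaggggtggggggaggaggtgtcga

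Short words of 5 kinds were searched for on both strands of the 250-base windows, of which 7 of the 10 genes have an entry (not Acaca, Fasn and Elovl6). CCAAT was present for 4 of the 7 (Fads1, Elovl5, Acsl3 and Acly) and in 34.2% of the 27457 windows of all genes. The sterol regulatory element core TCACNCCAC was in none of the 7 and in 0.987% of all windows. It was also in 0 of the 14 windows held for SREBP targets of sterol synthesis and uptake. Its absence from the 7 therefore does not set them apart from those targets. The E-box CACGTG was found for Elovl5 alone, against 5.73% of all windows, and the GC box GGGCGG for 5 of the 7 (Fads2, Fads1, Me1, Acsl3 and Acly), against 32.1%. In the 14 windows of sterol genes CCAAT was present in 12, the GC box in 12 and the E-box in 1. Parts of some windows lie within the annotated gene, and the matches of Acly and the GC box of Fads2 are there. The words are not substrings of each other, and a match is only a match of letters.

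At the entry to the pathway, Acly (chr10:85912402-85964605), which makes cytosolic acetyl-CoA, read 10.04, 9.66 and 10.26 in ND and 8.59, 9.12 and 9.74 in HFD at 2 months. HFD replicate 3 lay above the lowest ND array, so the groups overlapped. The log2 fold change was -0.84 ± 0.25 (95% interval -1.37 to -0.31, adjusted p = 0.0842). Acaca (chr10:69511627-69773888), the carboxylase that commits carbon to fat, differed little. It read 7.83, 7.58 and 7.82 in ND and 7.56, 7.75 and 7.84 in HFD, with fully mixed arrays and an interval of -0.32 to 0.27 around -0.03. A further Acaca probe set lay below the intensity filter, with group means of 2.75 to 3.06.

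Fasn (chr10:106570415-106588581), the synthase itself, read 9.10, 9.09 and 9.21 in ND and 8.48, 8.62 and 8.88 in HFD at 2 months. All HFD arrays were lower, by a modest amount, and the difference of -0.47 ± 0.14 did not pass (95% interval -0.78 to -0.17, adjusted p = 0.0887). Its other tested probe set stood at -0.27 ± 0.17 (adjusted p = 0.368). Acsl3 (chr9:87563601-87613078), an acyl-CoA synthetase of lipid droplets, read 7.89, 7.59 and 7.94 in ND and 7.40, 7.53 and 7.56 in HFD. The groups were separated only narrowly, and the difference was -0.31 ± 0.19 (adjusted p = 0.377).

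Elovl5 (chr8:87671164-87737618) elongates polyunsaturated acids between the FADS steps. It was steady over the whole series, with every array between 9.72 and 10.43, and it read 9.74, 9.72 and 10.11 in HFD against 10.29, 10.17 and 10.27 in ND at 2 months. HFD replicates 1 and 2 were the lowest arrays of the series. The 3 HFD arrays lay below the 3 ND arrays, by -0.38 ± 0.11 on average (95% interval -0.62 to -0.14, adjusted p = 0.0815). Over 17 arrays its Pearson correlation with Fads1 was 0.897, and 0.547 without the 2 farthest. Its dimmer probe set, with group means of 4.28 to 4.50, stood at -0.16 ± 0.17. Elovl6 (chr2:220738095-220845528), which extends palmitate to stearate, read 7.28, 7.18 and 8.33 in ND and 6.47, 7.36 and 7.50 in HFD. The groups overlapped: ND replicate 3 was the highest array and HFD replicate 1 the lowest, but the other HFD arrays lay above the other ND arrays. The difference was -0.48 ± 0.35 (adjusted p = 0.447). The other Elovl6 probe set stood at -0.23 ± 0.30 (adjusted p = 0.673).

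Me1 (chr8:96429057-96540244), cytosolic malic enzyme, had a difference of the opposite sign. It read 8.32, 8.56 and 8.38 in ND and 9.30, 9.19 and 8.71 in HFD at 2 months. Every HFD array was above every ND array, with HFD replicates 1 and 2, the lowest arrays for Fads1 and Fads2, at the top. The difference of 0.65 ± 0.23 did not pass (95% interval 0.16 to 1.14, adjusted p = 0.135). The other Me1 probe set gave 0.57 ± 0.24 (adjusted p = 0.209). The upstream bases of Me1 are shown because it was the 1 enzyme whose difference had the opposite sign. They are chr8:96540245-96540494 of GRCr8 on the minus strand, 250 bases, and capitals mark the match to TGACNNNGC, the antioxidant response element core.
Me1: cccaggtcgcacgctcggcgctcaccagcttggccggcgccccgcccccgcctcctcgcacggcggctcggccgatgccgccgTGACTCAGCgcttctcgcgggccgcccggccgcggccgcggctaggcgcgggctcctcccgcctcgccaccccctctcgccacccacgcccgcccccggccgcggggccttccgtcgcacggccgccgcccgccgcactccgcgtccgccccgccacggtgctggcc

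The TGACNNNGC word was found in the windows of Me1 and Scd among the 7 genes, and in 10.2% of all windows. The Scd match lay within its annotated gene. Of the 14 windows of sterol synthesis and uptake genes 4 held the word.

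**Figure D3:**
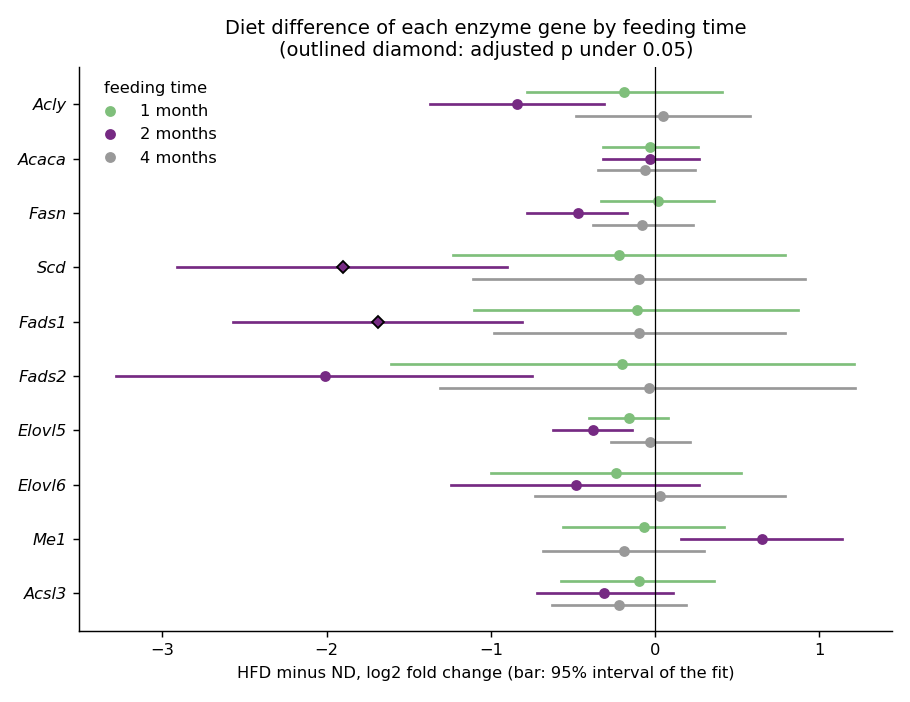
HFD minus ND is plotted on the horizontal axis as log2 fold change with its 95% interval, for each of the 10 genes (rows) at 1, 2 and 4 months (colours). Outlined diamonds mark an adjusted p under 0.05, which only Scd and Fads1 at 2 months reach. The intervals at 1 and 4 months cross 0 for all 10 genes.

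The Scd and Fads1 calls lay close to the threshold, and they were lost in most refits that left out 1 of the 18 arrays. Scd kept its call only without HFD 1-month replicate 1 or 2, ND 2-month replicate 2 or HFD 2-month replicate 3, and Fads1 only without ND 1-month replicate 1, 2 or 3 or HFD 2-month replicate 3. Their fold changes over the 18 refits ran from -2.38 to -1.53 and from -2.28 to -1.27, with adjusted p up to 0.198 and 0.186. HFD 2-month replicate 3 was the array nearest to ND for both, and without it 6 of the 10 genes passed, with Fads2 at -2.83, Acly at -1.13, Fasn at -0.58 and Elovl5 at -0.51.

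On the same 2-month arrays, markers of other cells and proliferation genes also had lower means in HFD. Of the 11446 named genes 6334 had negative differences at this time. Of 21 tested macrophage markers, all 21 had negative differences at 2 months, with a median of -1.59, and 0 passed in limma (1 at an unadjusted p under 0.05). The mean level of the 18 with a value on every array, relative to the average array, was 1.72, 1.63 and -1.87 in ND. In HFD it was -2.55, -1.13 and 0.17. The largest of the 21 by moderated statistic was Adgre1 (-3.36 ± 1.03, adjusted p = 0.0891), followed by Aif1, Cd53 and Cd163. All 23 tested cell cycle genes, led by Mki67 (-1.45 ± 0.44, adjusted p = 0.0872), had negative differences, with a median of -0.71. In limma 0 of them passed (6 at an unadjusted p under 0.05). The mean of the 20 with a value on every array was -0.20, 0.34 and 0.09 in ND and -1.30, -0.52 and -0.38 in HFD. With the macrophage mean as a covariate Scd stood at -1.87 (adjusted p = 0.0777) and Fads1 at -1.40 (adjusted p = 0.104), and with the cell cycle mean at -1.95 (adjusted p = 0.138) and -1.43 (adjusted p = 0.184). Neither gene kept its call in either fit.

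Fat cell markers had a lower mean in HFD at 2 months as well. Of 9 tested adipocyte markers 7 had negative differences at 2 months and 0 passed in limma (2 at an unadjusted p under 0.05). The mean of the 7 with a value on every array, which leaves out Fabp4 and Cd36, was -0.26, -0.38 and 0.80 in ND. In HFD it was -0.56, -0.57 and -0.89. Adipoq and Plin1 lay below the filter level of 3.22 on all 3 HFD arrays and on ND replicates 1 and 2, with 3.67 and 7.06 on ND replicate 3. Fabp4 read 7.99, 6.71 and 10.19 in ND and 5.24, 5.56 and 6.89 in HFD, and Lpl 10.0, 9.24 and 10.28 in ND and 9.02, 8.23 and 7.19 in HFD. Cfd (-2.83 ± 1.05, adjusted p = 0.154) and Cidea (1.17 ± 0.44, adjusted p = 0.158) had the largest moderated statistics, ahead of these 2, and Lep and Cidec lay below the filter. The part of fat cells in the 2-month result was not tested. Of 11 tested stromal markers, Pdgfra fell (-1.08 ± 0.25, adjusted p = 0.0427) and the other 10 did not pass. The median over the 11 was 0.05, with 6 positive and 5 negative, and 3 had an unadjusted p under 0.05. Next to Pdgfra by moderated statistic were Prrx1 (-0.66 ± 0.18, adjusted p = 0.0715) and Nt5e (-1.49 ± 0.52, adjusted p = 0.131). The Pdgfra call was lost in 8 of the 18 refits without 1 array (-1.21 to -0.90), and its part in the result was not tested. Of 17 haematopoietic and endothelial markers 2 were bright enough to test, S100a8 (-0.59 ± 0.55) and Cd3e (-0.10 ± 0.17), and neither passed.

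**Figure D4:**
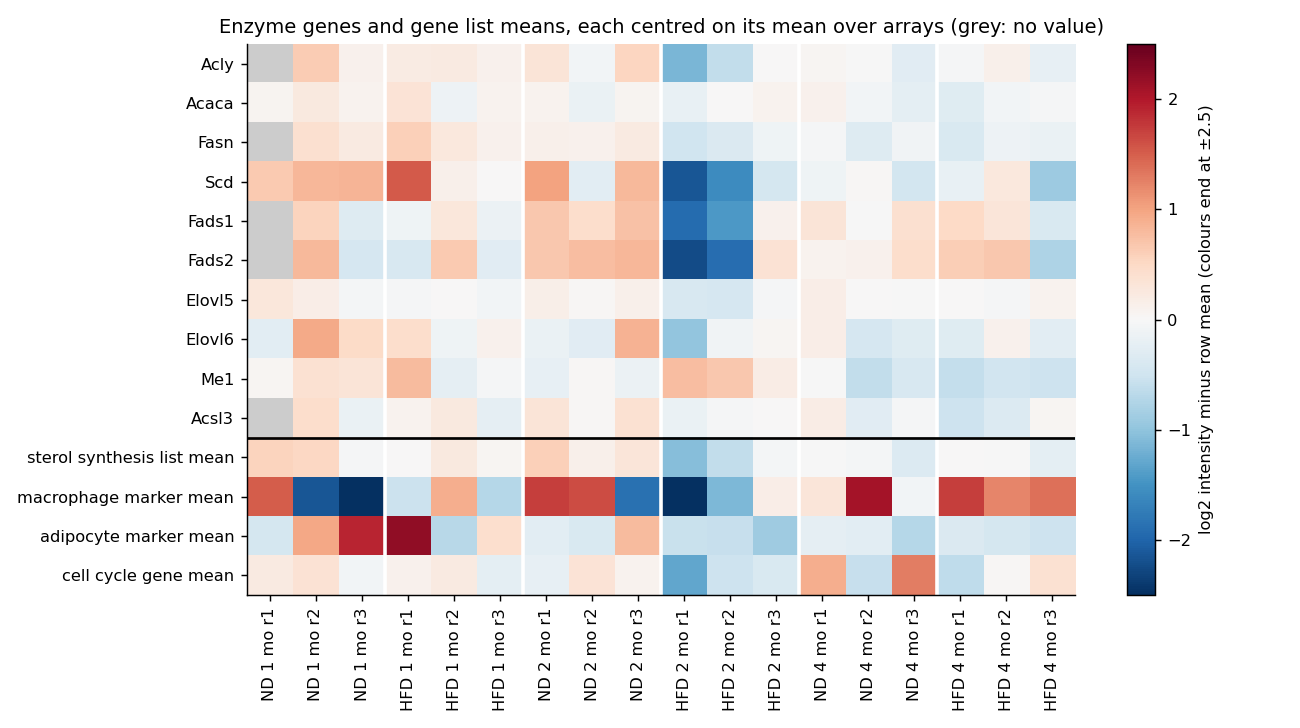
Rows are the 10 enzyme genes and, below the line, the means of 4 gene lists, each centred on its own mean over the arrays, and columns are the 18 arrays. Colour gives the log2 difference from the row mean and ends at 2.5 either way, with grey for no value. HFD 2-month replicates 1 and 2 are blue for Scd, Fads1, Fads2 and the sterol synthesis list and red for Me1.

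After 1 month of feeding no diet difference of these enzymes passed. In limma 0 of 10 genes passed, 0 reached an unadjusted p under 0.05, and 0% of named genes passed. An unadjusted p under 0.05 was reached by 1020 of the 11446 named genes. In no gene were the groups free of overlap, against 16.9% of all named genes. The differences ran from -0.24 (Elovl6) to 0.02 (Fasn), with a median of -0.14 and of -0.06 over all named genes.

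The spread within the 1-month groups was wide for several enzymes. Scd read 7.84, 8.02 and 8.05 in ND and 8.73, 7.32 and 7.21 in HFD. HFD replicate 1 was the highest Scd array of the whole series, and it also had the highest adipocyte marker mean, 2.22, with Adipoq at 7.72 and Plin1 at 8.38. The lipogenic regulator Thrsp, singled out after its values were seen, was 6.23 on that array and between 3.30 and 3.89 on the other 17. Fasn (9.58), Acaca (8.09) and Me1 (9.31) were at their series maxima on the same array. Me1 was nearly as high on HFD 2-month replicate 1 (9.30). Its other probe set read 9.11 on the 1-month array and was highest, at 9.27, on that 2-month array. Fads1 (8.97) and Fads2 (6.58) were not at their maxima on HFD 1-month replicate 1. They lay in the lower part of the range of the arrays outside HFD at 2 months. The part of fat cells in these levels was not tested.

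After 4 months no diet difference of these enzymes passed. In limma 0 of 10 passed and 0 had an unadjusted p under 0.05. Among the 11446 named genes 0% passed and 348 had an unadjusted p under 0.05. The groups overlapped for every one of the 10, against 8.04% of all named genes without overlap. The differences lay between -0.22 (Acsl3) and 0.05 (Acly), with a median of -0.07 beside -0.01 over all named genes. Scd, Fads1 and Fads2 stood at -0.10, -0.10 and -0.04, and the 95% intervals of these, -1.11 to 0.91, -0.98 to 0.79 and -1.31 to 1.22, do not show that the diets were alike. Scd read 7.08, 7.22 and 6.74 in ND and 7.01, 7.45 and 6.28 in HFD at this time, Fads1 9.39, 9.06 and 9.48 against 9.58, 9.37 and 8.69. HFD replicate 3 was the lowest array for both, and the others were mixed.

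Averaged over the 3 feeding times, 0 of 10 genes passed in limma and 4 had an unadjusted p under 0.05. Among the 11446 named genes 2.43% passed and 2384 had an unadjusted p under 0.05. The smallest adjusted p were those of Elovl5 (-0.19 ± 0.07, adjusted p = 0.112), Scd (-0.74 ± 0.27, adjusted p = 0.138) and Fads1 (-0.63 ± 0.25, adjusted p = 0.161). Whether the diet difference itself changed with feeding time was asked with an F test. It passed for 0 of the 10 genes and for 0% of named genes. Scd (unadjusted p = 0.0288), Fads1 (0.0330) and Me1 (0.0426) had the smallest values, with adjusted p of 0.692, 0.702 and 0.722. The 2-month fall of Scd and Fads1 was therefore not shown to differ from their differences at 1 and 4 months.

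The same enzymes were next followed over feeding time within each diet. These comparisons reuse the arrays of the diet comparisons and are not separate evidence. Between 2 and 4 months on HFD, Me1 fell by 1.08 ± 0.23 log2 units, or 2.12-fold (adjusted p = 0.0473), and was the only enzyme to pass. The 4-month HFD arrays read 7.92, 8.05 and 8.0, all below the 2-month ones at 9.30, 9.19 and 8.71. Its other probe set gave -1.10 ± 0.24 (adjusted p = 0.0539). Of all named genes 0.769% passed in this comparison and 0.454% were lower. With 1 array left out, the number of passing enzymes stayed at 1 without HFD 1-month replicate 1 or 2 or ND 4-month replicate 2. It was 5 without HFD 2-month replicate 3 and 0 without any of the other 14 arrays.

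The desaturases had positive differences over the same interval without passing: Fads2 1.44 ± 0.59 (adjusted p = 0.240), Fads1 1.22 ± 0.41 (0.167) and Scd 1.11 ± 0.47 (0.254). The Fasn probe sets differed in sign, with the brighter at 0.10 ± 0.14 and the other at -0.39 ± 0.17 (adjusted p = 0.763 and 0.256). Macrophage markers had positive differences over this interval for 21 of 21 genes, with a median of 2.52 and 0 passing in limma (8 at an unadjusted p under 0.05). Cell cycle genes did for 23 of 23, with a median of 0.65 and 0 passing (3 at an unadjusted p under 0.05). Over this interval 2137 of the 11446 named genes had an unadjusted p under 0.05, and 5580 had positive differences. Me1 stood at -0.87 (adjusted p = 0.163) with the macrophage mean as a covariate and at -1.14 (adjusted p = 0.0948) with the cell cycle mean, fits chosen for it after the data were seen.

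From 1 to 2 months on HFD, 0 of 10 genes passed in limma and 5 had an unadjusted p under 0.05. Among the 11446 named genes 0.0961% passed and 897 had an unadjusted p under 0.05. Scd stood at -1.95 ± 0.47 (adjusted p = 0.207), Fasn at -0.65 ± 0.14 (0.162) and Acly at -0.76 ± 0.25 (0.405). From 1 to 4 months on HFD 0 passed and 2 had an unadjusted p under 0.05. Among the 11446 named genes 0% passed and 897 had an unadjusted p under 0.05. The 2 enzymes were Fasn at -0.55 ± 0.14 and Me1 at -0.72 ± 0.23 (adjusted p = 0.393 and 0.466). The other Fasn probe set stood at -0.46 ± 0.17 from 1 to 2 months and at -0.85 ± 0.17 from 1 to 4 months (adjusted p = 0.493 and 0.272).

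On ND 0 of 10 genes passed in limma in any of the 3 time comparisons, and 0% of named genes did in each. From 1 to 2 months 0 enzymes had an unadjusted p under 0.05, and from 2 to 4 months 0 did although all 10 differences were negative, with a median of -0.31 beside -0.02 over all named genes. From 1 to 4 months 2 did, Fasn at -0.45 ± 0.16 (adjusted p = 0.417) and Me1 at -0.60 ± 0.23 (adjusted p = 0.443). In these 3 comparisons 254, 814 and 1140 of the 11446 named genes had an unadjusted p under 0.05. Fasn read 9.37 and 9.21 in ND at 1 month and 8.95, 8.66 and 8.90 at 4 months, and these arrays did not overlap. Its other probe set stood at -0.52 ± 0.17 from 2 to 4 months and at -0.73 ± 0.19 from 1 to 4 months. Both had an unadjusted p under 0.05 without passing (adjusted p = 0.509 and 0.328).

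Around the 10 enzymes lie other genes of fatty acid and triglyceride synthesis, of which 31 of 41 listed were tested. At 2 months 1 rose, 1 fell and 29 did not pass, with a median of -0.16. Lpcat3, which loads polyunsaturated chains into phospholipids, fell by 0.93 ± 0.15 (adjusted p = 0.0103), from 9.09, 9.10 and 9.23 in ND to 8.01, 8.17 and 8.46 in HFD. It also fell in the average over times (-0.42 ± 0.09, adjusted p = 0.0262). Its 2-month call held without each array in turn, while that of the average was lost in 5 of the 18 refits (-0.47 to -0.37, adjusted p up to 0.0634). With the probe sets of Lpcat3 averaged, the average over times was -0.33 (adjusted p = 0.0474). Hacd1, a dehydratase of the elongation cycle, rose by 0.67 ± 0.15 (adjusted p = 0.0381), from 10.03, 10.36 and 10.24 to 11.05, 10.76 and 10.83. That call was lost in 9 of the 18 refits without 1 array, with values of 0.58 to 0.74.

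Hacd2 and Cyb5a of that list stood just outside the threshold at 2 months. Hacd2, a dehydratase related to Hacd1, was at -0.43 ± 0.11 (adjusted p = 0.0537) and fell in the average over times (-0.26 ± 0.06, adjusted p = 0.0447), a call lost in 14 of the 18 refits (-0.30 to -0.23). Cyb5a, the cytochrome that passes electrons to the desaturases, was at -0.48 ± 0.13 (adjusted p = 0.0580). Scd2, the other delta-9 desaturase tested, read 10.74, 10.22 and 10.66 in ND and 8.75, 9.50 and 10.27 in HFD. Its groups overlapped, with HFD replicate 1 lowest and replicate 3 highest of the HFD arrays as for Scd, Fads1 and Fads2, and it did not pass (-1.03 ± 0.31, adjusted p = 0.0909). Scd2 and the acetyl-CoA synthetase Acss2 (-1.79 ± 0.48, adjusted p = 0.0637) were singled out after their values were seen.

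Of 17 tested genes that control lipid synthesis, 1 fell at 2 months and 16 did not pass, with a median of -0.12. Insig1, which holds SREBPs in the endoplasmic reticulum and is itself an SREBP target, fell by 1.59 ± 0.31 (adjusted p = 0.0218). It read 10.50, 10.13 and 10.38 in ND and 7.99, 8.79 and 9.44 in HFD, without overlap. Its call was lost without ND 2-month replicate 1 (-1.51), HFD 2-month replicate 1 (-1.22) or HFD 2-month replicate 2 (-1.62). The SREBP genes themselves did not pass, with Srebf1 at -0.24 ± 0.31 (adjusted p = 0.680) and Srebf2 at -0.50 ± 0.17 (adjusted p = 0.114). Nor did their escort Scap (0.33 ± 0.20, adjusted p = 0.360) or Rxra (0.28 ± 0.14, adjusted p = 0.252). Srebf1 read 7.51, 7.02 and 7.62 in ND and 6.92, 7.07 and 7.46 in HFD, with overlapping arrays.

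Nr1h3, the oxysterol receptor LXR alpha, was at -0.64 ± 0.18 at 2 months (adjusted p = 0.0679), with 5.23, 5.23 and 4.92 in ND and 4.67, 4.21 and 4.57 in HFD. It rose from 2 to 4 months on HFD by 0.98 ± 0.18 (adjusted p = 0.0330), to 5.26, 5.47 and 5.65. With the macrophage mean as a covariate, a fit added after the data were seen, it stood at 0.82 (adjusted p = 0.110), and with the cell cycle mean at 0.97 (adjusted p = 0.0785). The call was also lost in 5 of the 18 refits without 1 array, those without HFD 2-month replicate 1 or 2 or any HFD 4-month array, with values of 0.84 to 1.08. Mlxipl, the carbohydrate-responsive factor ChREBP, was near the filter at a mean of 3.32 and stood at -0.02 ± 0.11.

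Among SREBP targets of sterol synthesis and uptake, 5 of 17 tested genes fell at 2 months, 0 rose and all 17 differences were negative. Of the 11446 named genes 159 fell at this time and 6334 had negative differences. Their median was -0.93, beside -0.48 for the 10 fatty acid enzymes. The genes that fell were Sqle (-1.33 ± 0.28, adjusted p = 0.0282), Idi1 (-1.31 ± 0.32, 0.0463), Fdft1 (-1.24 ± 0.26, 0.0304), Sc5d (-0.96 ± 0.20, 0.0271) and Msmo1 (-0.82 ± 0.20, 0.0498), all enzymes of cholesterol synthesis. In the 18 refits without 1 array the Msmo1 call was kept only without HFD 2-month replicate 3 (-1.05), and that of Idi1 only without this array (-1.73) or ND 1-month replicate 3 (-1.31). Those of Sqle, Fdft1 and Sc5d were lost without ND 2-month replicate 1 or 2 or HFD 2-month replicate 1 or 2, and the latter 2 also without ND 2-month replicate 3. The values ran from -1.64 to -0.97 for Sqle, from -1.51 to -0.93 for Fdft1 and from -1.18 to -0.71 for Sc5d. Sc5d also fell in the average over times (-0.50 ± 0.12, adjusted p = 0.0416), a call lost in 14 of the 18 refits. With its probe sets averaged, that value was -0.29 (adjusted p = 0.107). At 2 months the list mean on the HFD arrays was -1.06, -0.62 and -0.05, and on the ND arrays 0.59, 0.13 and 0.30. Replicate 3 was again the HFD array nearest to ND. These genes and the fatty acid enzymes were measured on the same arrays, and the difference between the 2 medians was not tested.

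**Figure D5:**
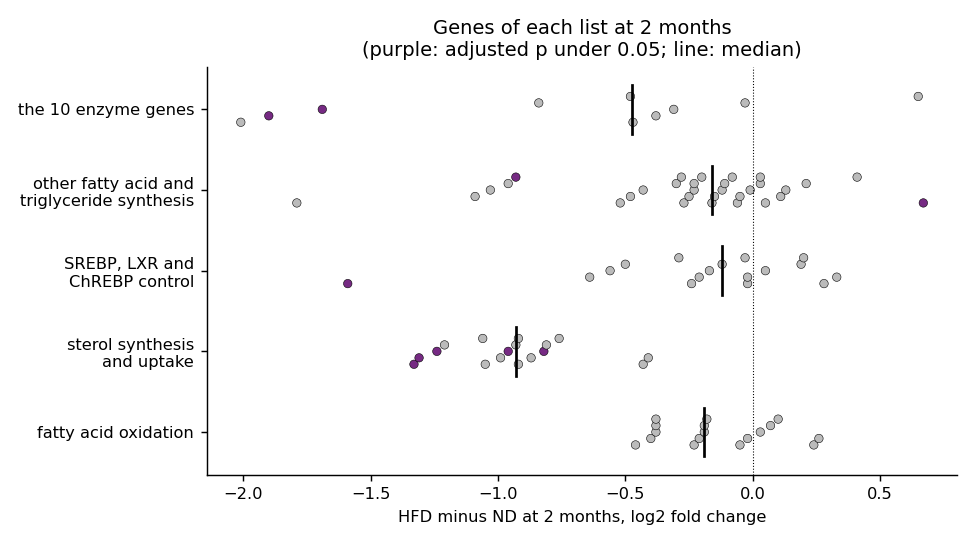
Each point is 1 gene, placed on the horizontal axis by its HFD minus ND log2 fold change at 2 months, with the gene lists as rows, a line at each list's median and purple for an adjusted p under 0.05. The medians are -0.48 for the 10 enzymes, -0.16 for the other fatty acid and triglyceride genes, -0.12 for the control genes, -0.93 for sterol synthesis and -0.19 for fatty acid oxidation.

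Fatty acid oxidation, the opposing pathway, was measured in 17 genes. At 2 months 0 passed in limma and 2 had an unadjusted p under 0.05, with a median of -0.19 and a range of -0.46 to 0.26. The largest by moderated statistic were Acads (-0.38 ± 0.14, adjusted p = 0.144) and Eci1 (-0.46 ± 0.21, adjusted p = 0.233), followed by Slc25a20 (-0.23 ± 0.12) and Decr1 (-0.38 ± 0.20). At 1 month 16 of the 17 differences were negative and at 4 months 16 were positive, and 0 passed at either time (4 and 0 at an unadjusted p under 0.05). Of the 11446 named genes 7161 had negative differences at 1 month and 5436 positive ones at 4 months.

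Genes whose pattern was most like that of the enzymes were ranked by Pearson correlation over 18 arrays with the mean of Acaca, Scd, Elovl5, Elovl6 and Me1, the 5 members with a value on every array. Among 10559 named genes Jak1 (0.880), Arhgap28 (0.870), Rnf125 (0.860), Rbp4 (0.859), Cdk14 (0.853), Aco1 (0.848), Prkra (0.845) and Pank3 (0.845) were highest. Since that mean lacks the FADS genes, the 17 arrays with a Fads1 value were also used, a choice made after the values were seen. After Fads2 (0.976) the genes most like Fads1 were Car5b (0.949), Gja1 (0.942), Dpysl2 (0.923), Glt8d2 (0.918) and Scd2 (0.913). The Fads1 ranking shares the arrays on which HFD 2-month replicates 1 and 2 stand apart. On these 2 arrays the mean of the 5 members was -0.59 and -0.28, and on HFD 4-month replicate 3 it was -0.33.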

How the data were processed

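RNA of 18 cultures was measured on Affymetrix rat arrays. The deposited values are probe set intensity on a linear scale, summarised by the authors with RMA per the submitters' processing notes, with no version given, and their scan dates and batches are not given in the sources used here. Log2 was taken with no offset. Because the values were summarised over all arrays together, differences between arrays remain relative. The column of ND 1-month replicate 1 was moved down by 1343 rows, after which it correlated at 0.990 with the average of the remaining arrays (0.0909 before), and 1066 tested probe sets have no value there.

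Platform annotation gave 1 symbol for 20832 probe sets, several for 436 and none for 9831, and RefSeq (GRCr8) held 20764 of the 20832 gene identifiers. Leaving out 57 controls and the dimmest 30% of the rest (mean log2 at or below 3.22, or 9.34 in linear intensity) left 21729 probe sets. limma 3.58.1 (R 4.3.3) fitted 1 mean per group to all arrays, with 12 residual degrees of freedom, and two-sided p-values were adjusted over the 21729 by Benjamini-Hochberg. A gene passed under 0.05. Precision is limited by there being 3 arrays in each group. Separate animals are stated only as n = 3 per group, so p-values describe variation from array to array. The fit was checked on simulated data with independent noise for each probe set. That check leaves out variation that probe sets share on an array, so it does not bear on calls near the threshold.

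The members and the gene lists were chosen with earlier results of these data known. All members are named, and from the other lists those that passed or had up to 4 of the largest moderated statistics at 2 months, fewer where space was short. Alternatives covered the filter, scaling, the variance model, array weights, the arrays fitted, probe set averaging, marker means as covariates, an offset of 16, a replicate block and leaving out each array.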

Additional observations from a re-analysis of the deposited data

How the results depend on the processing

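At 2 months 2 of the 10 genes passed. This count was 0 with no intensity filter, quantile normalization, the compared arrays alone, a covariate of either marker mean (macrophage or cell cycle), the misplaced column left as deposited, and omission of 2 doubted arrays (ND 1-month replicate 1, ND 2-month replicate 3). It was 1 with trend and robust moderation, with probe sets of a gene averaged and with log2 of value plus 16, and 7 with array weights. Over the 18 fits that left out 1 array it ran from 0 to 6. Between 2 and 4 months on HFD 1 gene passed, against 0 with no filter, either covariate, the misplaced column or both doubted arrays left out, 5 with array weights, and 0 to 5 without 1 array. For the average over times (0 passing) array weights gave 2 and leaving out 1 array 0 to 3. From 1 to 2 months on HFD (0 passing) they gave 3 and 0 to 4. The high ends of these ranges came without HFD 2-month replicate 3. With array weights 4330 probe sets passed at 2 months against 552 otherwise, with the compared arrays alone 2, with the cell cycle mean 61, with the misplaced column 0, without both doubted arrays 1319 and without 1 array 48 to 1262. The causes of these changes were not tested. Of the 2 doubted arrays, ND 1-month replicate 1 held the misplaced column. ND 2-month replicate 3 had a macrophage marker mean of -1.87, against 1.72 and 1.63 on the other ND 2-month arrays.

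Same-numbered arrays did not vary together, with a mean residual correlation of -0.0254 over 45 pairs and 3 of 9 diet pairs over 0.1, so the numbers were not treated as pairs. With the replicate block 0 of the 10 genes passed at 2 months, 0 between 2 and 4 months on HFD, and 317 probe sets passed at 2 months. A further 6 called values were put through the same settings after the data were seen: Me1 and Nr1h3 from 2 to 4 months on HFD, Pdgfra at 2 months, and Lpcat3, Hacd2 and Sc5d in the average. With the misplaced column as deposited, the average of Hacd2 was 0.39 and that of Lpcat3 0, against -0.26 and -0.42 otherwise. No other called value among those recomputed turned its sign. All 6 calls were lost with the cell cycle mean as a covariate and with the misplaced column. With the replicate block all but that of Lpcat3 were lost. With the macrophage mean those of Me1, Nr1h3 and Pdgfra were lost. Quantile normalization lost those of Pdgfra (adjusted p = 0.052), Hacd2 (0.115) and Sc5d (0.0828). Without both doubted arrays those of Me1, Lpcat3, Hacd2 and Sc5d were lost.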
